A study of Mus musculus with 4 samples.

Results

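The 40 genes described here drive or mark the cell division cycle: genes of DNA replication, genes of mitosis, the cyclins and kinases of G1 phase, and the inhibitors of cyclin-dependent kinases (CDKs). They were chosen by name from a list of cell cycle genes, without a threshold on their values, and all 40 were found among the 25571 rows of the deposited table. By role they fell into 7 S phase genes, 20 genes of mitosis, 8 G1 cyclins and kinases and 5 CDK inhibitors. Whole-tissue RNA came from skin of mice given platelet-rich plasma carried on microneedles (PRP-MNs), platelet-rich plasma (PRP) or microneedles (MNs), and from a group labelled NC, which served as the reference. Platelet-rich plasma is a platelet concentrate of blood that carries growth factors, and microneedles are arrays of fine needles that enter the skin. The series title concerns hair regrowth. Strain, sex, age, the number of animals in a library, the dose and the harvest time are not stated in these sources, and the labels do not spell out NC.

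Each group was a single library, so nothing could be tested against a spread between animals and every value describes these 4 libraries. Values are FPKM, fragments per kilobase of transcript scaled to sequencing depth, so levels can be compared between genes per length. Steps between low values corresponded to depths of about 17.2 M fragments under PRP-MNs, 15.9 M under PRP, 18.6 M under MNs and 19.35 M in NC. Ratios are log2 values of FPKM + 1 in 1 library over FPKM + 1 in another, a scale that shrinks differences of weakly expressed genes, and 2-fold is a log2 ratio of 1 on it. Genes tested are those at 1 FPKM or more in either library. The median ratio of all genes tested was 0.14 for PRP-MNs against NC, 0.04 for PRP against NC, 0.16 for MNs against NC, 0.08 for PRP-MNs against PRP and -0.02 for PRP-MNs against MNs. Of the 40 genes, 39 reached 1 FPKM in at least 1 library, Cdkn2a being the exception.

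A cell enters the cycle when D-type cyclins with Cdk4 or Cdk6 and cyclin E with Cdk2 release E2F factors from the Rb proteins, and E2F factors then switch on replication genes. Mitosis genes are switched on later, from promoters that carry CCAAT boxes and a cell cycle homology region (CHR), through the MuvB complex with B-Myb and FoxM1. In resting skin most dividing cells are basal keratinocytes of the epidermis, and in growing hair follicles the matrix divides rapidly. In bulk tissue, fewer dividing cells and less RNA per dividing cell cannot be told apart.

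In FPKM as deposited, the mitosis genes were lower in PRP-MNs than in NC, while most of the S phase genes were not. All 20 mitosis genes were lower in PRP-MNs, where 42.1% of all genes tested were lower by any amount, and their median log2 ratio was -0.60. The smallest difference, -0.12 for Tpx2, lay within counting error. FPKM of the whole table summed to 460805.4 in PRP-MNs and 515229.5 in NC, so the sign of so small a difference depends on the scaling. Of them, 3 were at least 2-fold lower, where 11.5% of all genes tested were, so that this share is near the background, and none was 2-fold higher, where 17.6% of all genes were. At a threshold of 1.5-fold, 10 of the 20 were lower, against 19.3% of all genes tested. The 7 S phase genes had a median of 0.16, close to the 0.14 of all genes, and 6 of them were higher in PRP-MNs. The median of the S phase genes thus lay 0.76 above that of the mitosis genes on the log2 scale. Markers of basal keratinocytes were lower too (8 of 10, median -0.85) and leukocyte markers higher (10 of 10, median 3.53), and their part in the result was not tested.

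**Figure D1:**
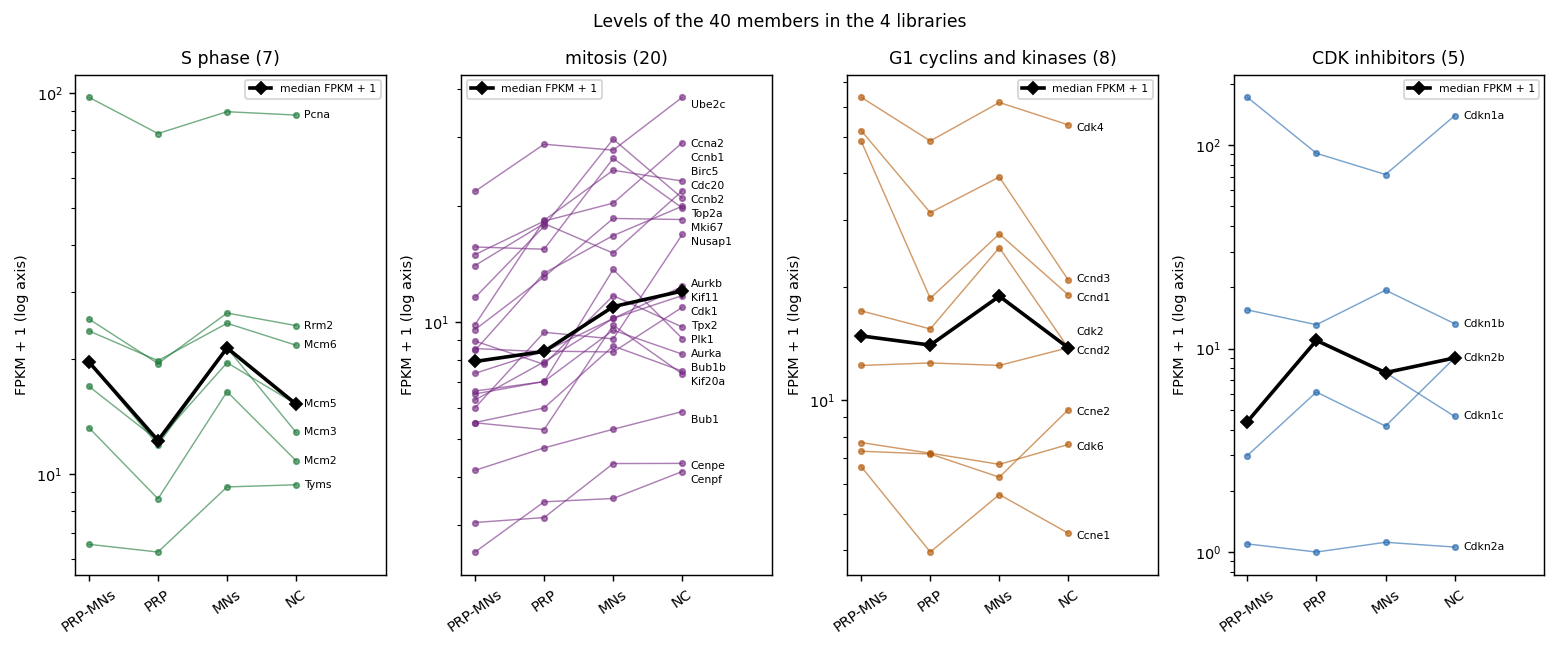
Levels of the 40 genes in the 4 libraries, as FPKM + 1 on a log axis, with 1 panel per role; thin lines join the values of a gene, and black diamonds mark the median FPKM + 1 of the role. Of the 20 mitosis genes, 16 are lowest in PRP-MNs, whereas all 7 S phase genes are lowest in PRP.

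Among the mitosis genes the B-type cyclins, which activate Cdk1 at entry into mitosis, and Nusap1, which bundles spindle microtubules, differed most. Nusap1 was at 5.02 FPKM under PRP-MNs, 8.43 under PRP, 8.06 under MNs and 15.9 in NC. It was highest in NC by a clear distance, and its ratio of PRP-MNs to NC was -1.49 on the log2 scale. Ccnb1 (cyclin B1) was at 8.87 FPKM under PRP-MNs, 17.3 under PRP, 23.7 under MNs and 22.2 in NC. PRP-MNs was lowest for Ccnb1, by more than 2-fold against MNs (log2 ratio -1.32) and against NC (-1.23). Ccnb2 (cyclin B2) was at 7.46 FPKM under PRP-MNs, 12.4 under PRP, 15.7 under MNs and 18.9 in NC, a log2 ratio of -1.24 between PRP-MNs and NC. Nusap1, Ccnb1 and Ccnb2 are the 3 mitosis genes at least 2-fold lower than in NC.

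Mki67, the gene of the proliferation antigen Ki-67, was at 8.58 FPKM under PRP-MNs, 12.1 under PRP, 17.5 under MNs and 17.4 in NC. MNs and NC were level, PRP lay between, and PRP-MNs was lowest, with a log2 ratio of -0.94 to NC. Ccna2 (cyclin A2), which acts in S phase and early mitosis, was at 14.0 FPKM under PRP-MNs, 17.2 under PRP, 19.3 under MNs and 28.1 in NC. Kif11, the motor that separates the spindle poles, was at 5.31 FPKM under PRP-MNs, 6.91 under PRP, 9.24 under MNs and 10.7 in NC. For both genes NC was highest and PRP-MNs lowest. As ratios of FPKM with no constant added, 7 of the 20 mitosis genes were below 0.5 in PRP-MNs relative to NC, namely Nusap1, Ccnb1, Ccnb2, Mki67, Ccna2, Kif11 and Cenpf, which encodes a kinetochore protein. The share of all genes below 0.5 was not taken on this measure, so the count of 7 has no background beside it.

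The anaphase-promoting complex, which ends mitosis by marking cyclin B for destruction, was represented by its activator Cdc20 and its ubiquitin-conjugating enzyme Ube2c. Cdc20 was at 10.6 FPKM under PRP-MNs, 16.7 under PRP, 28.7 under MNs and 19.9 in NC. Its highest library was MNs, and the log2 ratio was -1.36 between PRP-MNs and MNs and -0.85 between PRP-MNs and NC. Ube2c was at 20.8 FPKM under PRP-MNs, 27.8 under PRP, 26.8 under MNs and 37.1 in NC. PRP and MNs were near each other for Ube2c, and NC stood above both. Plk1, the polo-like kinase of mitotic entry and spindle assembly, was at 5.65 FPKM under PRP-MNs, 6.03 under PRP, 12.7 under MNs and 8.08 in NC. Both libraries with PRP were low for Plk1 and MNs was high, so that the ratio of PRP-MNs to MNs was -1.04 and that to NC was -0.45.

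Of the mitosis genes not yet given, the log2 ratios of PRP-MNs to NC ran from -0.69 for Cenpf to -0.12 for Tpx2, which targets the Aurora A kinase to the spindle. The kinases were close together, at -0.57 for Cdk1, -0.34 for Aurka (Aurora A), -0.53 for Aurkb (Aurora B), -0.50 for Bub1 and -0.44 for Bub1b, the last pair being kinases of the spindle checkpoint. Birc5, the survivin subunit of the chromosomal passenger complex, had a ratio of -0.64. Top2a, the topoisomerase that untangles sister chromatids, was at 14.6 FPKM under PRP-MNs, 14.4 under PRP, 25.5 under MNs and 18.7 in NC. The motor genes Kif20a and Cenpe, of which Cenpe acts at kinetochores, had ratios of -0.42 and -0.51, and Kif20a, which acts in cell separation, was at 4.51 FPKM under PRP-MNs, 4.29 under PRP, 8.84 under MNs and 6.36 in NC. Top2a and Kif20a shared with Plk1 that both libraries with PRP were low and MNs was highest.

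Counting error was estimated from the number of fragments that each FPKM stood for at the length of the gene's principal transcript. In PRP-MNs the mitosis genes rested on between 182 fragments for Aurka and 1488 for Mki67. The 95% interval of the FPKM ratio between PRP-MNs and NC, exact by Clopper-Pearson, lay below 1 for 19 of the 20 mitosis genes, Tpx2 being the exception at 0.816 to 1.02. It was 0.274 to 0.364 for Nusap1, 0.355 to 0.450 for Ccnb1, 0.333 to 0.464 for Ccnb2 and 0.463 to 0.524 for Mki67. For the S phase genes it lay above 1 for 5 of 7 and below 1 for Tyms. The interval for PRP against NC also lay below 1 for 19 of the 20 mitosis genes, of which none was at least 2-fold lower. No share over all genes was taken for such intervals, so these counts have no background beside them. These intervals cover counting error only and say nothing of the spread between animals or pieces of skin.

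**Figure D2:**
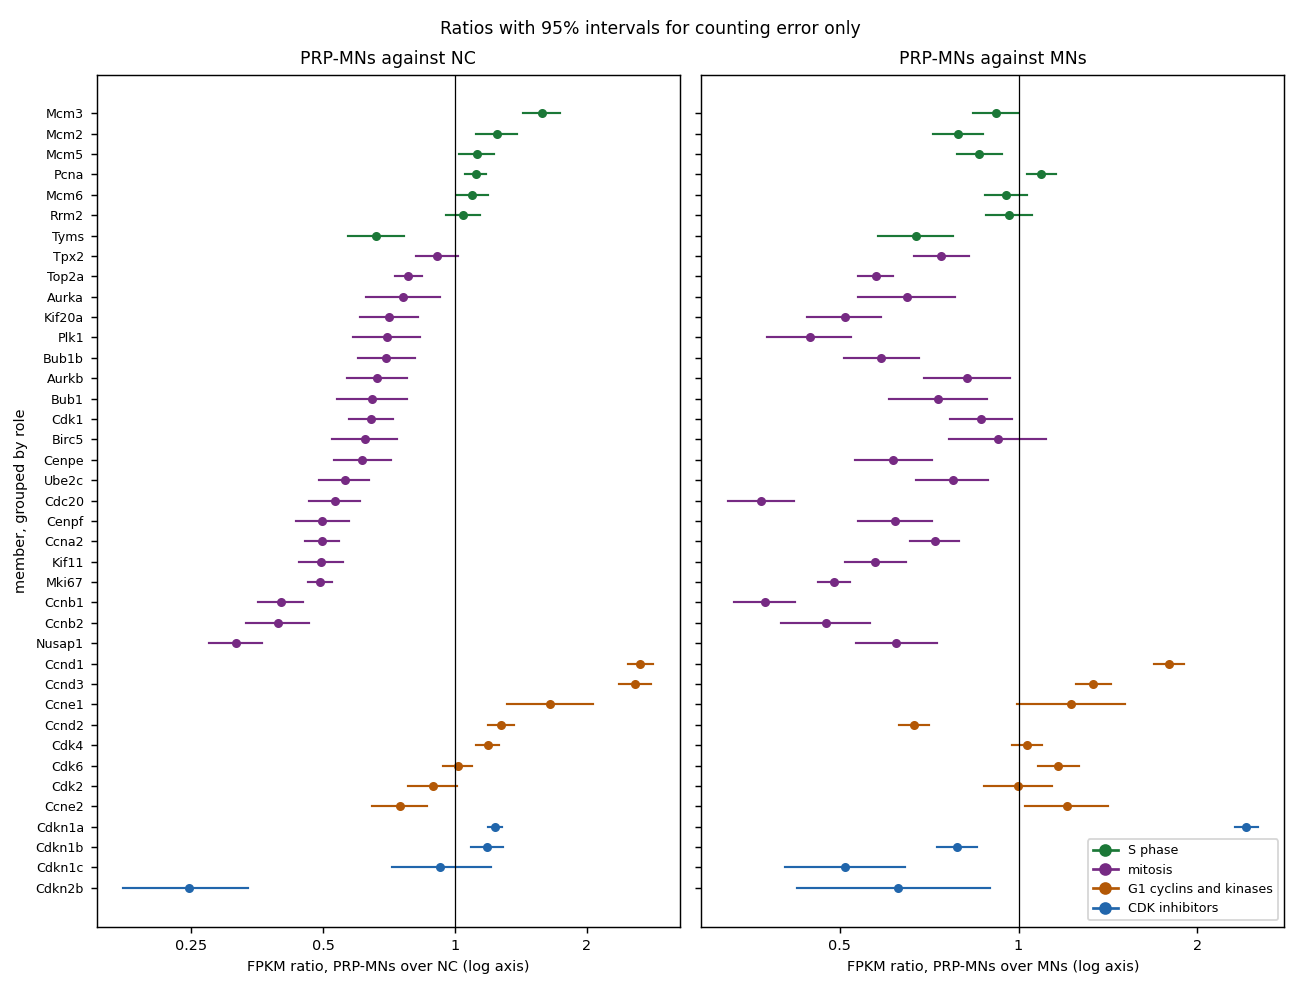
Ratio of FPKM of PRP-MNs over NC (left) and over MNs (right) on log axes, for 39 genes grouped by role; points are ratios and bars are 95% intervals for counting error only, with Cdkn2a left out because it was below the floor of 3 fragments in every library. The mitosis genes lie below 1 on both sides, and among them Nusap1, Ccnb2 and Ccnb1 are the farthest below it on the left, where the inhibitor gene Cdkn2b lies lower still.

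Promoter sequences are shown because mitosis and S phase genes, which differed here in their ratios, are known to use different promoter elements. RefSeq promoters on GRCm38.p6 were matched for 32 of the 40 genes, including 16 of the mitosis and all 7 of the S phase genes, over 250 bases before and 50 after the start site. The CHR was searched as TTTGAA or TTCGAA, the CCAAT box as CCAAT, and the E2F site as TTTGGCGC, TTTGCCGC, TTTCGCGC or TTTCCCGC, each on both strands, where the letters of no motif contain those of another. A CHR match was present in 12 of 16 mitosis promoters, in 1 of 7 S phase promoters (Mcm2) and in 19.2% of all 32851 promoters in the table. CCAAT was present in 14 of 16 mitosis promoters and 6 of 7 S phase promoters, against 37.4% of all promoters. Both motifs together were present in 12 of 16 mitosis promoters and in 7.52% of all promoters. An E2F match was present in 3 of 7 S phase promoters (Mcm3, Mcm5 and Mcm6, in Mcm3 after the start site), in 1 of 16 mitosis promoters (Cdk1) and in 2.26% of all promoters. A match is a string of letters, and binding was not measured.

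For 8 mitosis genes a CHR match lay before the start site, and a window of 28 bases around 1 match of each is printed 5′ to 3′ on the gene's strand, with that match in capitals. On GRCm38.p6 the windows are chr7:135716461-135716488 (Mki67), chr11:99024196-99024223 (Top2a), chr9:70421705-70421732 (Ccnb2), chr10:69352967-69352994 (Cdk1) and chr4:118437345-118437372 (Cdc20) on the minus strand. On the plus strand they are chr2:118598012-118598039 (Bub1b), chr19:37376352-37376379 (Kif11) and chr2:164769889-164769916 (Ube2c). These windows were chosen after their sequences had been read, to show how the element is embedded.
Mki67: cgccgttttggTTTGAAtcgggcgggct
Top2a: ctagataaaggTTCAAAtgaaactaggg
Ccnb2: agggactagaaTTTGAAaataagactgt
Cdk1: tgattggctccTTTGAAcgtctacgtgc
Bub1b: ctctccctgggTTCGAAggcttgtctta
Kif11: cgtctccatttTTCAAAattgaggcgcg
Ube2c: gagggttgcaaTTCAAAcgcgggcggcg
Cdc20: gacagttgggtTTTGAAggagccaatga
The first base of the match lay 18 bases before the start site in Cdc20, 19 in Kif11, 23 in Top2a, 29 in Ube2c, 71 in Cdk1, 98 in Mki67, 167 in Ccnb2 and 188 in Bub1b. All 8 also held at least 1 CCAAT box before the start site, with 6 in Top2a and in Ube2c.

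The bases before the start site are given for the 2 mitosis genes, the 2 S phase genes and the CDK inhibitor that differed most between PRP-MNs and NC, with CHR, CCAAT and E2F matches in capitals. Nusap1 (chr2:119618048-119618297, plus strand) and Ccnb2 (chr9:70421555-70421804, minus strand) are the mitosis genes. Mcm3 (chr1:20820313-20820562, minus strand) and Tyms (chr5:30073626-30073875, minus strand) are the S phase genes, and Cdkn2b (chr4:89311033-89311282, minus strand) is the inhibitor.
Nusap1: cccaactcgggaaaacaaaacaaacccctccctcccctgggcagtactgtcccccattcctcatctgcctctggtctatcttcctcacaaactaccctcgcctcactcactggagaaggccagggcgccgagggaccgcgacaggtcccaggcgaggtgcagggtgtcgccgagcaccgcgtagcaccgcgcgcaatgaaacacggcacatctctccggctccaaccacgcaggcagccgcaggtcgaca
Ccnb2: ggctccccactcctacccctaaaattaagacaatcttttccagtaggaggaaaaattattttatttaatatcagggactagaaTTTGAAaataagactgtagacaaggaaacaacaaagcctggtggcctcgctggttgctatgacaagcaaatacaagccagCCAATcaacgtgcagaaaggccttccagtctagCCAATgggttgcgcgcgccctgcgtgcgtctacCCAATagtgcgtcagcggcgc
Mcm3: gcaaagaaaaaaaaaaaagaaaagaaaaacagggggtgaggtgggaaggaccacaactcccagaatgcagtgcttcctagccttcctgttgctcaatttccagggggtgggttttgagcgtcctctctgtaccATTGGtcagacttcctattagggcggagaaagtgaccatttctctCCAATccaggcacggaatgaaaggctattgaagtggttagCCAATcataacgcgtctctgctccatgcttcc
Tyms: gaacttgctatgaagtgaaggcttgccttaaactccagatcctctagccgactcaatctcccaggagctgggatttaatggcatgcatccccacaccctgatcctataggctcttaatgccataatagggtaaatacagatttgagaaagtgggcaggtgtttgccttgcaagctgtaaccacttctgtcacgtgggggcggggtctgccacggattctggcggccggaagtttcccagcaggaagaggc
Cdkn2b: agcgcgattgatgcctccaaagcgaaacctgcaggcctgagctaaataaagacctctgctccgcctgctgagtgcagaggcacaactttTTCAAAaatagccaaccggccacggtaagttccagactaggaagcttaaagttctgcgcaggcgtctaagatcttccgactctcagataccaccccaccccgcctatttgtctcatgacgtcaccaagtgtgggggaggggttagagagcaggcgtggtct
Ccnb2 carried 3 CCAAT boxes, with first bases 87, 54 and 21 bases before the start site. The window of Nusap1, the mitosis gene with the lowest ratio, held no match to any of the 3 motifs, and neither did that of Tyms, the S phase gene that stood apart from the others. The mitosis gene Birc5 likewise held none. Ccnb1, also at least 2-fold lower in PRP-MNs than in NC, and Cenpe held CCAAT but no CHR match. A link between motifs and ratios was not tested.

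The S phase genes comprised 4 subunits of the Mcm helicase that unwinds DNA at replication origins, the sliding clamp Pcna, and 2 enzymes of nucleotide supply, Rrm2 and Tyms. Mcm3 was at 18.7 FPKM under PRP-MNs, 10.9 under PRP, 20.4 under MNs and 11.9 in NC. The libraries with microneedles were high for Mcm3 and the libraries without them were low, and the ratio of PRP-MNs to NC was 0.61. Mcm2 showed the same division, at 12.2 FPKM under PRP-MNs, 7.61 under PRP, 15.5 under MNs and 9.83 in NC. Mcm5 and Mcm6 differed less, with ratios of 0.16 and 0.13 between PRP-MNs and NC. Pcna, the most abundant S phase gene, was at 96.6 FPKM under PRP-MNs, 77.4 under PRP, 88.4 under MNs and 86.6 in NC. Rrm2, the regulated subunit of ribonucleotide reductase, had a ratio of 0.06.

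Tyms, the thymidylate synthase gene, was the S phase gene that was lower in PRP-MNs than in NC. It was at 5.54 FPKM under PRP-MNs, 5.24 under PRP, 8.25 under MNs and 8.37 in NC. Both libraries with PRP were low for Tyms and both libraries without it were level. No S phase gene differed by 2-fold between any pair of libraries compared.

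In PRP against NC, the 7 S phase and the 20 mitosis genes had similar medians below 0. All 7 S phase and all 20 mitosis genes were lower in PRP, where 45.8% of all genes tested were lower, with median log2 ratios of -0.32 and -0.37. The difference between these medians was 0.06. The wider lists given below lay further apart, with medians of -0.20 for 40 further replication genes and -0.41 for 48 further mitosis genes. No S phase or mitosis gene was at least 2-fold lower, where 1.46% of all genes tested were, or 2-fold higher, where 7.78% were. The lowest ratio was that of Nusap1 (-0.84), followed by Ccna2 (-0.67). PRP was the lowest of the 4 libraries for all 7 S phase genes and for 4 mitosis genes, against 14.4% of all genes at 1 FPKM or more in any library.

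In MNs against NC the mitosis genes were divided, with 9 higher and 11 lower and a median of -0.08, where 39.4% of all genes tested were lower. The sign of that median depended on the scaling, since it was 0.09 with each library rescaled to the same sum and 0.05 with mitochondrially encoded genes left out of that sum. Plk1 (0.59), Cdc20 (0.51), Top2a (0.43) and Kif20a (0.42) were on the higher side, and Nusap1 (-0.90), Birc5 (-0.53) and Ccna2 (-0.52) on the lower. The S phase median was 0.19, with Mcm3 at 0.74 and Mcm2 at 0.60. None of these 27 genes differed by 2-fold, where 15.7% of all genes tested were at least 2-fold higher and 7.12% lower. The 3 comparisons with NC share that library and the 3 with PRP-MNs share that one, so they are not independent.

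**Figure D3:**
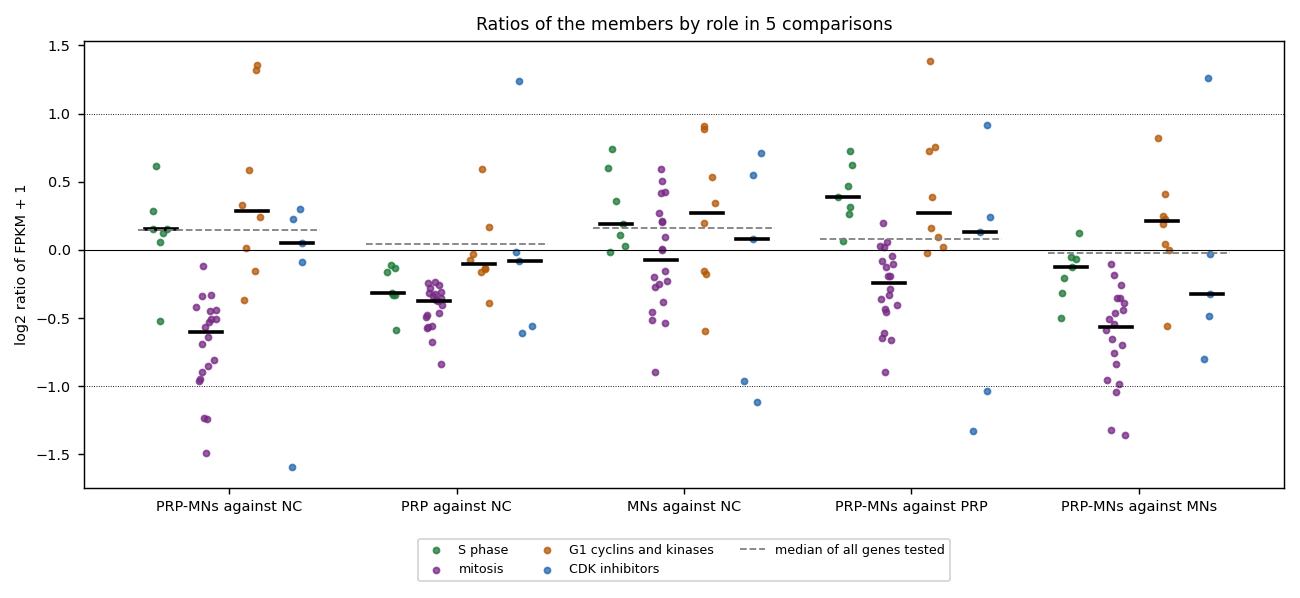
Log2 ratio of FPKM + 1 of each gene in the 5 comparisons, coloured by role; black bars are role medians, dashed lines the median of all genes tested, and dotted lines mark 2-fold. The mitosis genes lie below 0 throughout in PRP-MNs against NC, in PRP against NC and in PRP-MNs against MNs, and on both sides of 0 in MNs against NC.

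The comparisons without NC also placed mitosis below replication in PRP-MNs. Against MNs, all 20 mitosis genes were lower in PRP-MNs, where 51.7% of all genes tested were lower, with a median of -0.57. Of these, 3 were at least 2-fold lower (Cdc20, Ccnb1 and Plk1), where 7.39% of all genes tested were, and none was 2-fold higher, where 7.16% were. The S phase median against MNs was -0.12, so that the S phase genes lay 0.45 above the mitosis genes. Against PRP, 16 of 20 mitosis genes were lower in PRP-MNs, where 44.3% of all genes tested were, with a median of -0.24, while all 7 S phase genes were higher, with a median of 0.39. Neither set held a gene that differed by 2-fold from PRP, where 9.54% of all genes tested were at least 2-fold higher and 7.5% lower.

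PRP-MNs was the lowest of the 4 libraries for 16 of 20 mitosis genes and for none of the S phase genes, against 28.9% of all genes at 1 FPKM or more in any library. NC was the highest library for 11 mitosis genes and MNs for the remaining 9, where NC was highest for 26.5% of all genes. The summed FPKM of the 7 S phase genes was 1.25 times that of the 20 mitosis genes in PRP-MNs, 0.742 times in PRP, 0.760 times in MNs and 0.627 times in NC. Because Pcna makes up much of the S phase sum, the same ratio was taken without it. It was 0.635 under PRP-MNs, 0.359 under PRP, 0.425 under MNs and 0.317 in NC, the same order of libraries. PRP-MNs was highest in both forms.

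Wider lists of genes with the same roles were read beside the 40. Of 48 further mitosis genes, 44 were lower in PRP-MNs than in NC, where 42.1% of all genes tested were, with a median of -0.54. At least 2-fold lower were 7 of the 48 (Cenpa, Cdc25b, Kif23, Ttk, Cdc25c, Mad2l1 and Cdca3), a share near the 11.5% of all genes tested. Cenpa, the centromeric histone, was at 12.2 FPKM under PRP-MNs, 22.1 under PRP, 23.9 under MNs and 33.6 in NC. Cdc25b, a phosphatase that activates Cdk1, was at 6.67 FPKM under PRP-MNs, 14.8 under PRP, 13.1 under MNs and 18.3 in NC. Kif23, a motor of cell separation, had a ratio of -1.18 and the checkpoint kinase gene Ttk of -1.16. The kinetochore gene Zwint went the other way, at 55.6 FPKM under PRP-MNs, 30.5 under PRP, 38.7 under MNs and 27.1 in NC, and was the only further mitosis gene at least 2-fold higher against NC, where 17.6% of all genes tested were. The 7 lower genes and Zwint, other than the 4 with the largest differences, were named after their values were seen.

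The 40 further replication genes did not share the slightly positive median of the 7 S phase genes. Their median in PRP-MNs against NC was -0.03, below the 0.14 of all genes, with 19 higher and 21 lower. At least 2-fold lower was 1 of the 40, below the 11.5% of all genes tested. It was Prim1, the primase that starts DNA chains, at 8.79 FPKM under PRP-MNs, 14.4 under PRP, 12.6 under MNs and 21.3 in NC. Gins1, a subunit of the replicative helicase complex, had a ratio of -0.85 and the clamp loader gene Rfc4 of -0.79, while Pola2, a subunit of DNA polymerase alpha, had a ratio of 0.60. Against NC the further replication genes still lay above the further mitosis genes in PRP-MNs (-0.03 and -0.54), in PRP (-0.20 and -0.41) and in MNs (0.01 and -0.21). The distance was widest in PRP-MNs.

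**Figure D4:**
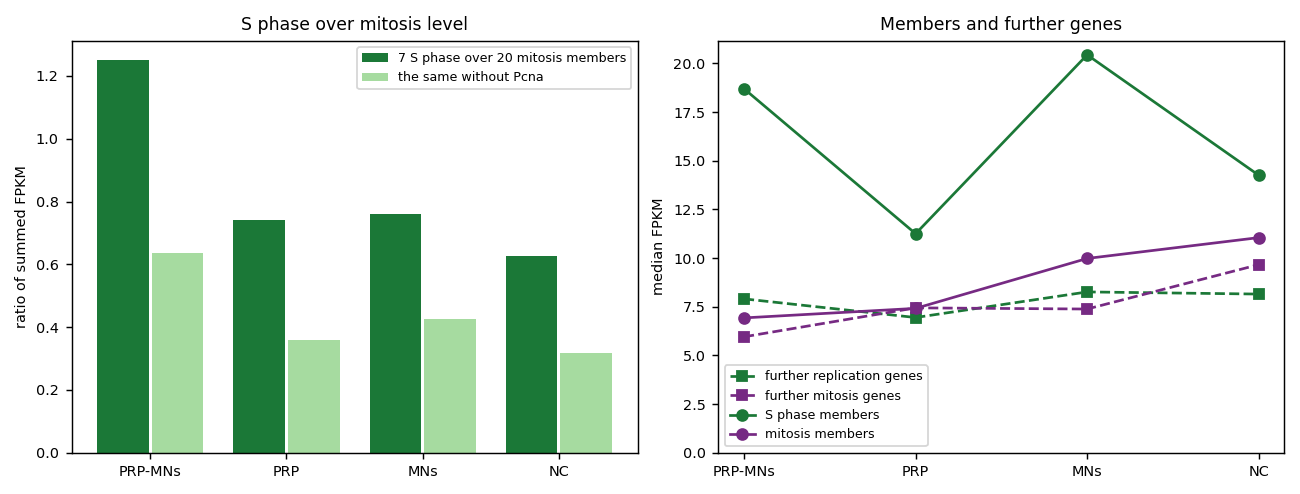
Left, summed FPKM of the 7 S phase genes divided by that of the 20 mitosis genes in each library, with and without Pcna; right, median FPKM of both sets and of the 40 further replication and 48 further mitosis genes. The S phase to mitosis ratio is highest in PRP-MNs (1.25), and both mitosis sets have their lowest median there.

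Among the G1 cyclins and kinases, 2 of the D-type cyclins, the sensors of growth signals, had the largest ratios of PRP-MNs to NC. Ccnd1 (cyclin D1) was at 47.6 FPKM under PRP-MNs, 17.6 under PRP, 26.6 under MNs and 17.99 in NC. PRP-MNs stood above all others for Ccnd1, with a log2 ratio of 1.36 to NC, and PRP and NC were level. Ccnd3 (cyclin D3), which is also abundant in blood cells, was at 50.9 FPKM under PRP-MNs, 30.4 under PRP, 38.1 under MNs and 19.8 in NC. All treated libraries were above NC for Ccnd3, and PRP-MNs was the highest, with a ratio of 1.32 to NC. Ccnd1 and Ccnd3 were the G1 genes at least 2-fold higher under PRP-MNs (2 of 8, where 17.6% of all genes tested were), and none was 2-fold lower, where 11.5% were. With 8 genes, 2 is little above the background share.

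Ccnd2 (cyclin D2) had another order, at 16.2 FPKM under PRP-MNs, 14.4 under PRP, 24.4 under MNs and 12.7 in NC. MNs was its highest library. The cyclin E genes differed in direction between PRP-MNs and NC, with Ccne1 at 5.66 FPKM under PRP-MNs and 3.43 in NC, and Ccne2 at 6.32 FPKM under PRP-MNs and 8.44 in NC. The kinase genes varied little. Cdk4 was at 62.6 FPKM under PRP-MNs, 47.7 under PRP, 60.6 under MNs and 52.7 in NC. Cdk2, the partner of cyclin E, stayed between 11.4 and 12.8 FPKM and Cdk6 between 5.75 and 6.71 FPKM. The median of the 8 G1 genes was 0.29 in PRP-MNs against NC, -0.11 in PRP against NC and 0.27 in MNs against NC.

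The CDK inhibitors did not share a direction. Cdkn1a, which encodes p21, an inhibitor induced by p53 and by differentiation, was the most abundant of all 40 genes except in MNs, where Pcna was higher. It was at 171 FPKM under PRP-MNs, 90.2 under PRP, 70.7 under MNs and 138 in NC. PRP-MNs and NC were high and the libraries with a single treatment were low, with a ratio of 1.26 between PRP-MNs and MNs and 0.91 between PRP-MNs and PRP. Cdkn1c, which encodes p57, was the mirror of this, at 3.37 FPKM under PRP-MNs, 9.97 under PRP, 6.62 under MNs and 3.64 in NC. PRP and MNs were its high libraries, and its ratio was -1.33 between PRP-MNs and PRP and 1.24 between PRP and NC. For PRP-MNs over NC the 95% counting interval of the Cdkn1c FPKM ratio, 0.716 to 1.21, included 1.

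Cdkn2b, which encodes the Cdk4 and Cdk6 inhibitor p15, was at 1.98 FPKM under PRP-MNs, 5.12 under PRP, 3.16 under MNs and 7.996 in NC. It was highest in NC and lowest in PRP-MNs, with a ratio of -1.59, the lowest of all 40 genes in that comparison. The value in PRP-MNs stood for about 47 fragments and that in NC for about 215. Cdkn1b, which encodes p27, was at 14.5 FPKM under PRP-MNs, 12.1 under PRP, 18.4 under MNs and 12.3 in NC. Cdkn2a, which encodes p16 and p19Arf from overlapping frames, was at 0.0963 FPKM in PRP-MNs, listed at 0 under PRP, at 0.117 FPKM in MNs and at 0.0579 FPKM in NC. The level that 3 fragments give for Cdkn2a was 0.194 FPKM under PRP-MNs, 0.211 under PRP, 0.180 under MNs and 0.173 in NC, so no direction is given for it. Because Cdkn2a sits in the middle of the 5 ratios in PRP-MNs against NC, the inhibitor median of 0.05 is its value and carries little.

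The E2F, Rb and MuvB regulators had a median of 0.23 in PRP-MNs against NC, with 13 of 20 higher and 7 lower, near the 0.14 and the 42.1% lower of all genes tested. E2f4, a factor that represses cell cycle genes in resting cells, was at 50.6 FPKM under PRP-MNs, 28.1 under PRP, 27.5 under MNs and 22.3 in NC, and was the only regulator at least 2-fold higher, where 17.6% of all genes tested were. E2f6 and E2f3 had ratios of 0.66 and 0.59, and Tfdp2, a partner of E2F factors, of -0.92. Of 18 genes of p53 and its targets, 5 passed 2-fold upward in PRP-MNs relative to NC where 17.6% of all genes tested did, and none was 2-fold lower, where 11.5% were, with a median of 0.38. The 5 were the receptor gene Eda2r (2.01), the death effector Bax (1.68), the growth arrest gene Gadd45a (1.55), the kinase gene Plk2 (39.2 FPKM under PRP-MNs and 16.5 in NC) and the nuclease gene Aen (1.11). Gadd45a was at 40.1 FPKM under PRP-MNs, 8.31 under PRP, 15.03 under MNs and 13.0 in NC, and Trp53 itself had a ratio of 0.34. The 18 genes were split by direction in PRP-MNs against NC, with 11 up and 7 down by any amount, where 42.1% of all genes tested were lower. Among the 7, the lowest log2 ratios were those of Trp53inp1 (-0.92) and Zmat3 (-0.73). Aen, Trp53, Trp53inp1 and Zmat3 were named after their values were seen.

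Markers of the cell types in the skin also differed between the libraries, and their part in the cell cycle ratios was not tested. In PRP-MNs against NC the mitosis median was -0.60 and that of the basal keratinocyte markers -0.85. In MNs against NC the mitosis median was -0.08 and that of the basal keratinocyte markers -0.01. The medians of suprabasal, blood vessel and fibroblast markers in that comparison were -2.01, 1.95 and 2.84. In PRP against NC the mitosis median was -0.37 and the basal median -0.15. The summed level of 10 basal keratinocyte markers was 2972 FPKM under PRP-MNs, 5928 under PRP, 5557 under MNs and 6761 in NC, with a median ratio of -0.85 to NC, -0.76 to PRP and -0.70 to MNs for PRP-MNs. Against NC, 4 of the 10 were at least 2-fold lower, where 11.5% of all genes tested were, and 1 was 2-fold higher, where 17.6% were. By any amount 8 were lower and 2 higher, the latter being Lama3 (log2 ratio 1.44) and Lamb3 (0.43), named after their values were seen. Krt14 was at 2055 FPKM under PRP-MNs and 3966 in NC and Krt5 at 689 FPKM under PRP-MNs and 2348 in NC, both keratins of the basal layer. The 10 suprabasal markers, of cells that have left the cycle, were all at least 2-fold lower in PRP-MNs (median -3.60), where 11.5% of all genes tested were. Krtdap was at 497 FPKM under PRP-MNs and 6947 in NC, and the keratin Krt10 at 475 FPKM under PRP-MNs and 6056 in NC. The 10 leukocyte markers were all at least 2-fold higher in PRP-MNs (median 3.53), summing to 1616 FPKM under PRP-MNs, 505 under PRP, 517 under MNs and 126 in NC, where 17.6% of all genes tested were 2-fold higher. The signalling adaptors Fcer1g and Tyrobp were at 360.4 and 228 FPKM under PRP-MNs and at 24.6 and 19.7 FPKM in NC. The 10 markers of blood vessels were likewise all at least 2-fold higher (median 2.73), with Pecam1 at 79.1 FPKM under PRP-MNs and 6.83 in NC and Eng at 49.8 FPKM under PRP-MNs and 3.997 in NC. No basal, suprabasal, leukocyte or vessel marker was at 0 in any library.

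Markers of growing hair follicles were near the floor in both libraries with PRP. The 10 hair matrix and shaft markers found summed to 0.649 FPKM under PRP-MNs, 1.24 under PRP, 23.3 under MNs and 6.71 in NC. The sums in MNs and NC rested mainly on keratins of the inner root sheath, Krt71, Krt25 and Krt27 (4.33 FPKM in MNs and 1.31 in NC). The shaft keratins Krt31, Krt33a, Krt35 and Krt86 were at 0.57 FPKM or less in every library. Krt27 and Krt86 were named after their values were seen. Krt31, Krt33a, Krt35, Krt25 and Krt71 were listed at 0 in PRP-MNs, and the inner root sheath keratin Krt71 was at 9.52 FPKM in MNs and 2.15 FPKM in NC, and Krt25 at 6.06 FPKM in MNs and 1.04 FPKM in NC. Lymphocyte markers were low, and 8 T and B cell markers summed to 8.27 FPKM under PRP-MNs, 16.4 under PRP, 6.36 under MNs and 26.5 in NC, led by the T cell receptor subunits Cd3g (3.91 FPKM under PRP-MNs and 17.1 in NC) and Cd3e (1.44 under PRP-MNs and 5.33 in NC). The 6 markers of neutrophil precursors, which divide in bone marrow, summed to 2.23 FPKM under PRP-MNs, 2.15 under PRP, 2.65 under MNs and 0.254 in NC. Highest by mean over the 4 libraries were the proteases Prtn3 (1.80 FPKM under PRP-MNs and 0.254 in NC) and Ctsg (0.0871 under PRP-MNs and listed at 0 in NC). Under PRP-MNs all of the 6 markers but Prtn3 were at 0.146 FPKM or less, where 3 fragments give 0.174 FPKM at a length of 1 kb. The sum thus rests mainly on Prtn3. Fibroblast markers summed to 1085 FPKM under PRP-MNs, 2003 under PRP, 7482 under MNs and 988 in NC, with the matrix genes Col3a1 at 289.6 FPKM under PRP-MNs and 226 in NC and Dcn at 316 FPKM under PRP-MNs and 311 in NC. The 10 fibroblast markers were split in PRP-MNs against NC, with 6 higher and 4 lower (median 0.11). At least 2-fold higher were 2, where 17.6% of all genes tested were, and none was 2-fold lower, where 11.5% were. These 2 were Pdgfra (log2 ratio 3.02) and Pdgfrb (2.52), named after their values were seen. The part of these cell types in the cell cycle ratios was not tested.

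**Figure D5:**
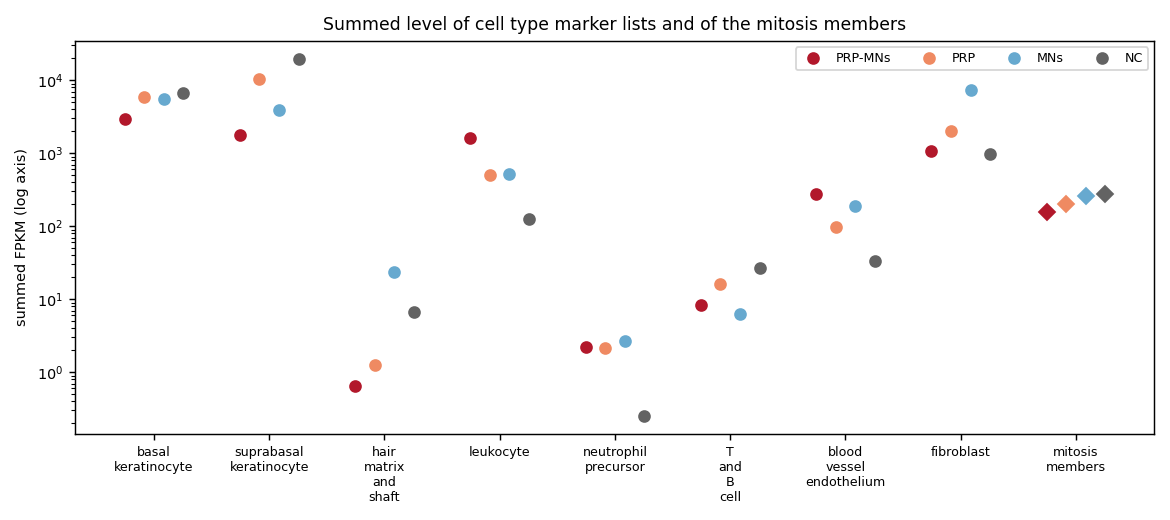
Summed FPKM of 8 cell type marker lists and of the 20 mitosis genes in the 4 libraries, on a log axis. In PRP-MNs the basal, suprabasal and hair matrix lists and the mitosis genes are lowest, and the leukocyte and blood vessel lists are highest.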

How the data were processed

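Skin RNA of mice was sequenced in 4 libraries, 1 per group. The NEBNext Ultra kit was used with 1 μg of input RNA, per the labels' protocols, and the submitters' processing notes name GRCm38 as the build. Aligner, quantification tool, annotation and use of strand were not given in the sources, so reads of antisense partners or near-identical copies cannot be told apart. Expression was deposited as FPKM per gene, in 1 table of 25571 genes, of which 3535 were models assembled from the reads.

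The genes and lists were chosen with earlier results of these data known. With 1 library per group, no test was run. Genes at 1 FPKM or more in at least 1 of the 2 libraries compared were counted across the whole table (numpy 2.4.6, pandas 2.3.3, Python 3.11.15). Role medians used all members without a filter. Of the wider lists, the 4 genes with the largest ratio of PRP-MNs to NC at 5 FPKM or more and the 2 most abundant markers of each list were named. Krt85, 1 of the listed markers, was not analysed here. Depth was read from steps of low values on genes with 1 annotated transcript (GENCODE M21), searched between 8 and 28 M fragments: at the best step between 26.3% and 29.6% of low values were whole to within 0.02, against 2.79% to 3.21% at the median step. Intervals used scipy 1.17.1. Calculations were tested on simulated data.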

Additional observations from a re-analysis of the deposited data

Results flagged for a closer look

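PRP was given with and without microneedles, and microneedles with and without PRP, so each treatment has a pair of comparisons that share no library. Genes and role medians were looked at again where the 2 comparisons of a treatment went in opposite directions by at least 1.5-fold each, and 2 CDK inhibitor genes did so. Cdkn1a (p21) had a log2 ratio of 1.26 for PRP-MNs against MNs and of -0.61 for PRP against NC, and of 0.91 for PRP-MNs against PRP and of -0.96 for MNs against NC. Cdkn1c (p57) went the opposite way in each, at -0.80 for PRP-MNs against MNs and 1.24 for PRP against NC, and at -1.33 for PRP-MNs against PRP and 0.71 for MNs against NC. The difference between the comparisons was not tested, since each group holds 1 library. No other gene of the 40 and no role median met this rule.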

How the results depend on the processing

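A median, or difference of medians, was taken as shifted where it moved by 0.25 or more on the log2 scale, and a count where it moved by over 1.5 times. Of 204 recalculations of 27 results, 1 of them chosen after seeing the data, 190 stayed within these limits, among them every S phase and mitosis median. Within them, the mitosis median in MNs against NC, -0.08, changed sign to 0.09 with libraries rescaled to the same sum, 0.05 without mitochondrially encoded genes and 0.01 at 5 FPKM or more, and the G1 median in PRP against NC, -0.11, to 0.03 with summed FPKM. With each median set against that of all genes, the inhibitor medians against NC changed sign to -0.09 in PRP-MNs and -0.08 in MNs. The genes lowest in PRP-MNs, 19 of 40, numbered 15 after rescaling, 16 after rescaling without mitochondrially encoded genes and 16 at 5 FPKM or more. Summed FPKM in place of medians, which weights abundant genes, gave 0.62 for the G1 genes in PRP-MNs against NC and 0.60 against PRP, and 0.72 for S phase minus mitosis in PRP-MNs against MNs. The inhibitor median, over 5 genes, was the least stable. With summed FPKM it was -0.47 in PRP against NC, -0.71 in MNs against NC and 0.70 in PRP-MNs against PRP, and in PRP-MNs against MNs it turned to 0.95, in place of -0.32, since Cdkn1a makes up most of the sum. With a pseudocount of 0.1 it was -0.62 in PRP against NC and 0.46 in MNs against NC. With a filter at 1 or 5 FPKM, which drops Cdkn2a, it was -0.21 in MNs against NC and -0.40 in PRP-MNs against PRP. At 1.5-fold in place of 2-fold, 10 in place of 3 mitosis genes were lower in PRP-MNs than in NC. No paired analysis was possible because each group holds 1 library. At the depths here, Cdkn2a could not be compared.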
